A study of Mus musculus with 54 samples.

Results

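The hearts and livers of wild-type mice kept on a high-fat diet were set against each other, gene by gene. The comparison used 18 of the 54 sequenced libraries of the series, that is 9 heart and 9 liver libraries of the genotype Mrps12+/+. Each deposited column held 3 technical libraries of 1 mouse, so that 6 of 18 columns were used, with 3 mice per tissue. Genes were joined by identifier, each column was scaled to the same sum (counts per 1000000, CPM), and protein-coding genes with a mean deposited count of 10 or more in either tissue were kept. Of 54356 genes in the tables, 21834 were protein coding and 14872 were tested.

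All 6 columns came from male C57BL/6 mice aged 20 weeks on a high-fat chow in which fat supplied 42% of energy, and no mice on standard chow were analysed here. The other genotypes of the series carry homozygous knock-in alleles of Mrps12, a protein of the small subunit of the mitochondrial ribosome, which make mitochondrial translation error-prone (Mrps12ep/ep) or hyper-accurate (Mrps12ha/ha). The wild types were age-matched littermates from heterozygous breeding. The study describes the RNA as isolated from total hearts or livers. Every value is thus a mixture over the cells sampled, and fewer cells of a type cannot be told apart from less RNA per cell. Atrial genes and skeletal muscle markers differed widely between columns of 1 organ, as given below. Whether each column held the whole organ was not tested. The labels name no batch, and any difference in handling between the heart and the liver libraries cannot be told apart from the tissue. Whether heart 1 and liver 1 came from the same animal is not given in the sources used here, and p-values measure the spread between 3 mice of each tissue.

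The adult heart contracts without pause and draws most of its ATP from the oxidation of fatty acids, with lactate, glucose and ketone bodies as further fuels. The liver makes most plasma proteins, bile acids and urea, stores and releases glucose, makes lipids and ketone bodies for export, and modifies drugs and hormones. Many metabolic enzymes exist as pairs of closely related isoforms encoded by separate genes, of which striated muscle and liver use different members.

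The wild-type heart columns held 37101153 to 51480271 reads and the liver columns 61935754 to 67825945. One read was worth at most 0.0270 CPM in a heart and 0.0161 CPM in a liver. The heart and liver tables were normalized separately by the authors, and scaling every column to the same sum removed the single factor that this had given each column. Mrps12, at chr7:28739641-28741820 on the minus strand, stood at 35.0, 32.8 and 31.7 CPM in hearts 1 to 3 and at 31.8, 34.1 and 32.5 CPM in livers 1 to 3. The difference was 0.02 on the log2 scale, with an adjusted p of 0.866 in limma. The knock-in alleles change single residues, so that this level gives no check of genotype.

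The organ labels held against cell type markers. All 15 cardiomyocyte markers were higher in the hearts, where their summed level was 107734, 115128 and 103227 CPM against 180.4, 257 and 1.87 CPM in livers 1 to 3. All 15 hepatocyte markers were higher in the livers, at 140826, 124311 and 120882 CPM against 561, 186 and 290.1 CPM in hearts 1 to 3. Skeletal muscle markers, a different striated muscle, summed to 653, 799 and 1.14 CPM in the 3 livers, so that livers 1 and 2 carried muscle transcripts and liver 3 almost none. The hepatocyte markers reached a median of 0.454, 0.120 and 0.232% of their mean liver level in hearts 1, 2 and 3. Single markers lay between 0.0407% and 0.722%. The heart levels of the liver genes described below are given beside this background, and the part of hepatocyte RNA in them was not tested.

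A few genes took a large share of the deposited counts of both tissues, and a larger one in liver. The 10 most abundant genes held 14.9 ± 0.442% of heart counts and 17.8 ± 0.434% of liver counts (SD, n = 3). The 100 most abundant held 32.1% and 44.2%, and the 1000 most abundant 61.9% and 72.6%. The columns of the tissues did not overlap at any of these numbers of genes, and an exact two-sided permutation test gave p = 0.1, the smallest value that 3 against 3 allows. The most abundant entry of the hearts, Gm29216, is annotated as an unprocessed pseudogene at chr1:24615706-24616197. It stood at 38279, 33784 and 36003 CPM in the hearts and 5636, 8520.2 and 5648 CPM in the livers, and was not tested because it is not protein coding. It is part of the column sums and of the shares given above, and the origin of its reads was not tested. Among protein-coding genes alone, the 10 most abundant held 12.5% in hearts and 18.1% in livers. Genes encoded by mitochondrial DNA are not analysed here. The study's methods left mitochondrial transcripts out of the differential expression analysis, and the deposited gene types include no mitochondrial rRNA or tRNA. The CPM values and shares are therefore parts of the deposited counts. Shares of the full libraries, with mitochondrial transcripts counted, were not measured and could order the tissues differently.

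**Figure D1:**
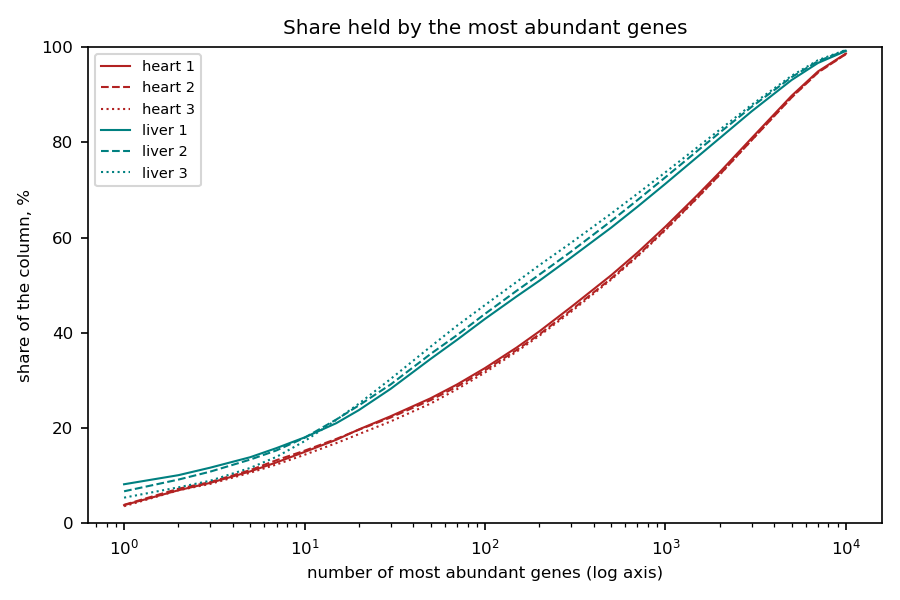
Cumulative share of the deposited counts of a column in percent (vertical axis) against the number of most abundant genes counted (horizontal axis, log scale), one line per wild-type column, hearts in red and livers in teal. The liver lines lie above the heart lines, with 44.2% against 32.1% of counts in the 100 most abundant genes.

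Most of the transcriptome differed between the organs. Differences are given as heart minus liver on the log2 scale, so that a negative value is higher in liver. With limma at an adjusted p under 0.05, 11419 genes differed, which is 76.8% of those tested. Of these, 8499 (57.1%) were higher in heart and 2920 (19.6%) were higher in liver. A called difference of at least 2-fold was found for 6178 genes in favour of heart (41.5%) and 2150 in favour of liver (14.5%). The 3 columns of each tissue did not overlap for 11988 genes (80.6%). The median SD between mice was 0.15 in hearts and 0.25 in livers on the log2 scale, against a median absolute difference of 1.25 between the tissues.

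The excess of heart calls moved with the scaling. The median gene was 0.76 higher in heart on the log2 scale of CPM, or 1.69-fold, and with trimmed-mean (TMM) scaling, which centres the bulk of genes, the differences of well-expressed genes moved by -0.73. Under TMM 10493 genes were called, 5442 higher in heart (36.6%) and 5051 higher in liver (34%), so that the heart share of the calls went from 74.4% to 51.9%. All 3992 genes that TMM placed at least 2-fold higher in heart were in the CPM set, as were all 2150 liver genes of the CPM set in the TMM set. The shift of -0.73 largely fixed this nesting in advance, so that it is no separate check of the calls. A further 346 genes changed from higher in heart to higher in liver. Many gene groups below are therefore given with their median, to be read beside the 0.76 of all genes. Their counts are to be read beside the shares of 57.1% higher in heart and 19.6% higher in liver. TMM counts are named where they differ in direction.

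The heart and liver directions had different shapes. Differences of 16-fold or more were called for 1036 genes in favour of heart and 726 in favour of liver. At 256-fold or more the order turned, with 118 heart genes and 197 liver genes. Above 1024-fold, 29 genes favoured heart and 1, Serpina10, favoured liver. The 95% interval of the difference lay inside a 2-fold range in either direction for 3385 genes (22.8%). All these counts are on the CPM scale. Fold changes against a tissue with almost no reads depend on the 0.1 CPM added before taking logarithms. Hearts 1 to 3 held hepatocyte markers at a median of 0.454, 0.120 and 0.232% of their liver level. The part of this background in the largest liver folds was not tested.

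**Figure D2:**
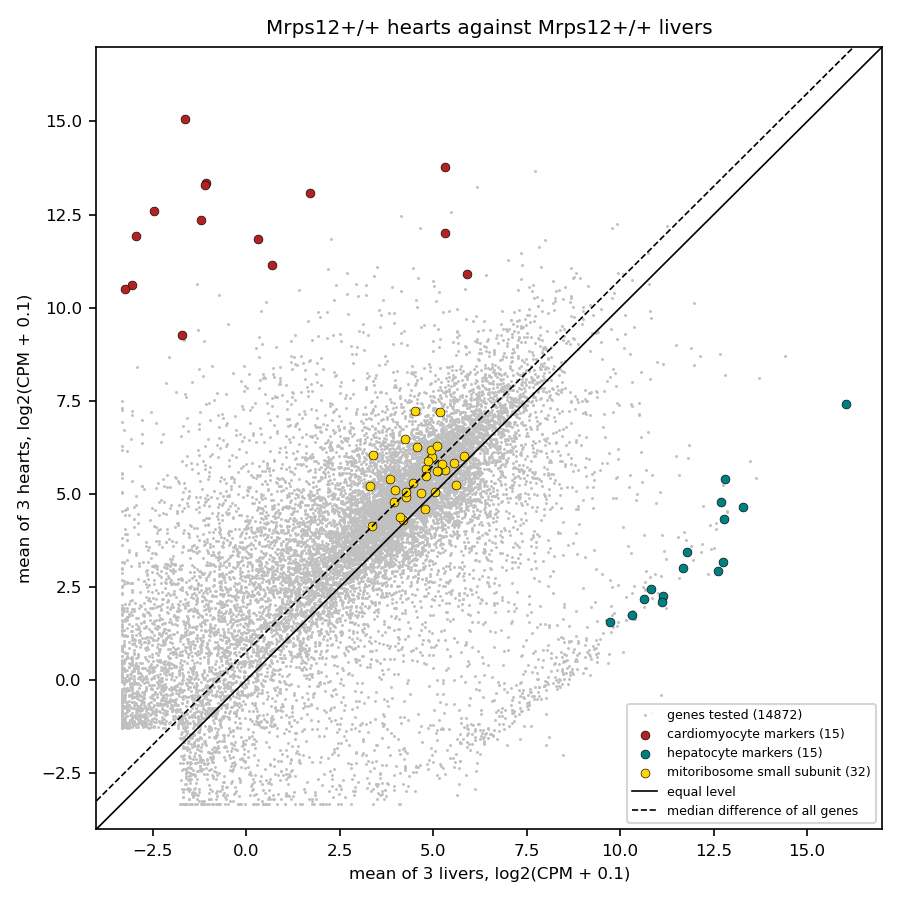
Mean level in the 3 wild-type hearts (vertical axis) against that in the 3 wild-type livers (horizontal axis), both as log2(CPM + 0.1), one point per tested gene in grey, with cardiomyocyte markers, hepatocyte markers and mitochondrial small-subunit ribosomal proteins in red, teal and yellow. The solid line marks equal levels and the dashed line the median difference of 0.76 (log2), around which the ribosomal proteins lie, while the marker genes lie far to either side.

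Many of the most abundant genes of each organ were low in the other, though not all. Promoter sequences of 2 abundant liver-biased genes and 2 abundant heart-biased genes are shown, chosen from the genes whose values are given below. They come from RefSeq on GRCm38.p6, run 5′ to 3′ on the gene's strand from 250 bases before to 50 bases after the annotated start, and lie at chr5:90460620-90460919 (plus strand, Alb), chr6:71199629-71199928 (plus, Fabp1), chr2:114052826-114053125 (minus, Actc1) and chr1:135836084-135836383 (plus, Tnnt2). The RefSeq starts lie 27 bases upstream of the outermost start of the quantified gene for Alb, 20 upstream for Tnnt2, 52 downstream for Fabp1 and 673 downstream for Actc1. Capitals mark matches to the searched motifs.
Alb: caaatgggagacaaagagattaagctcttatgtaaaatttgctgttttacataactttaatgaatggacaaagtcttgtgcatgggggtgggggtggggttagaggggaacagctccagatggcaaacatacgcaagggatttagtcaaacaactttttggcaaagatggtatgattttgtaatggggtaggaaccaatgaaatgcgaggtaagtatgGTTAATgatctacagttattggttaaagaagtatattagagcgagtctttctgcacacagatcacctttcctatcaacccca
Fabp1: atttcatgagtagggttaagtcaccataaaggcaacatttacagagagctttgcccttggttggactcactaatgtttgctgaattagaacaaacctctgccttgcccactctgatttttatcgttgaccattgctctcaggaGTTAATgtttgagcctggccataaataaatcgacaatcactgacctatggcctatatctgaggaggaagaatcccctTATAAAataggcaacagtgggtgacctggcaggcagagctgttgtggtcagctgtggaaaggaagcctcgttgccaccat
Actc1: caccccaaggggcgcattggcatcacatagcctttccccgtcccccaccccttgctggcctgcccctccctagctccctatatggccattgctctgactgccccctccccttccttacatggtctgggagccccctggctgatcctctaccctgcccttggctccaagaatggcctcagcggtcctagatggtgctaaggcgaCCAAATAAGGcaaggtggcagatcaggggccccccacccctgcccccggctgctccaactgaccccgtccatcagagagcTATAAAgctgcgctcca
Tnnt2: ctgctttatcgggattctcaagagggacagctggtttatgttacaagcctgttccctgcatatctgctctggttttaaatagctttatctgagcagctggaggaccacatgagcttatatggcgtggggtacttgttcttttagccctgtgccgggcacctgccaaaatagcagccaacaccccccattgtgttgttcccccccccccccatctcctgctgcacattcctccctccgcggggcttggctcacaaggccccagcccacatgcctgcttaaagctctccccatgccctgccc

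In Alb, the HNF1 core GTTAAT stood 32 bases upstream of the annotated start, and in Fabp1 107 bases upstream, with TATAAA at 30 bases. Actc1 held a CArG box, the element bound by serum response factor, 47 bases upstream, and TATAAA 33 bases after the annotated start, and none of the searched letters was in the Tnnt2 window. GTTAAT, read on both strands, occurred in 7.20% of all 27025 promoters and in 4.61% of the 11600 promoters of tested genes. It was in 16.2% of the 562 promoters of genes called at least 16-fold higher in liver and in 4.99% of the 762 called at least 16-fold higher in heart. The HNF4 sequence CAAAGTCCA occurred in 2.85% of the same liver promoters and 0.483% of tested genes. The MEF2 sequence CTAAAAATA was in 1.05% of the same heart promoters against 0.284% of tested genes, and the CArG box, added to the search after the sequences were seen, in 2.62% against 1.29%. TATAAA was in 17.4% of the liver set, 11.9% of the heart set and 8.05% of tested genes. The C/EBP sequence TTGCGCAA and the ERR sequence TCAAGGTCA were each in under 1% of every set. These shares describe letters in a fixed window and not binding, and the RefSeq start lay within 250 bases of the bounds of the quantified gene for 98.6% of the matched genes.

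Of the sarcomere genes, which encode the contractile filaments, 29 of 30 were higher in heart and none was higher in liver, against 57.1% and 19.6% of all tested genes. Their median difference was 8.61 on the log2 scale. Myh6, the fast α-myosin heavy chain of the mouse ventricle, was the most abundant protein-coding gene of the hearts at 31247, 38901 and 33474 CPM, against 0.620, 0.0160 and 0.0299 CPM in the livers. Actc1, cardiac α-actin, stood at 11931, 11830.0 and 7728 CPM in hearts and 0.295, 0.597 and 0.228 CPM in livers. The tissues did not overlap for either gene. Tnnt2 and Tnni3, the thin-filament troponins T and I, stood at 8922, 10800.2 and 10315 CPM and at 4860.0, 5384 and 5531 CPM in the hearts, and at 0.369, 0.501 and 0.228 CPM and at 0.590, 0.178 and 0.243 CPM in the livers. Their differences were 14.43 ± 0.22 and 13.67 ± 0.32 (log2 ± SE, adjusted p = 5.47e-07 and 1.14e-06 in limma). Mybpc3, the thick-filament regulator mutated in familial hypertrophic cardiomyopathy, stood at 4716, 3647 and 3385 CPM in hearts and 0.0590, 0.0319 and 0 CPM in livers, where the values amount to 0 to 4 reads. Myl2, the ventricular regulatory light chain, stood at 9368, 8609 and 8137 CPM in hearts and 3.23, 6.31 and 0.0448 CPM in livers, and Tpm1, tropomyosin, at 9615, 10103 and 9221 CPM against 87.3, 80.6 and 48.7 CPM. In both, liver 3 lay below livers 1 and 2, as did its skeletal muscle markers. The 1 sarcomere gene not called was Acta1, skeletal α-actin, chosen here after its values were seen, at 1139, 640.0 and 215 CPM in hearts and 96.0, 126 and 0.107 CPM in livers.

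Genes of calcium release and uptake and of the cardiac action potential followed. Of 18 calcium-handling genes, 15 were higher in heart and none in liver (13 and 2 under TMM), with a median of 6.79. Pln, phospholamban, the inhibitor of the sarcoplasmic calcium pump, stood at 6364, 5865 and 6180.1 CPM in hearts against 0.103, 0.0639 and 0.0766 CPM in livers. Its target Atp2a2, the calcium pump, is also made outside muscle, and stood at 12197, 13947 and 13196 CPM against 259, 181 and 191 CPM. Ryr2, the calcium release channel, stood at 1428, 1589 and 1655 CPM in hearts and 0.0148, 0.0479 and 0 CPM in livers, and Hrc, a calcium-binding protein of the reticulum, at 1574, 1531 and 1579.8 CPM and 5.65, 9.80 and 0 CPM. The calcium genes named here ran from nearly complete to partial heart bias, while 3 of the 18 on the list were not called on the CPM scale.

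All 20 ion channel and gap junction genes were higher in heart, with a median of 6.10. Kcnj11, the pore of the ATP-sensitive potassium channel, stood at 188, 222 and 215 CPM in hearts and 0.561, 0.905 and 0 CPM in livers, and Abcc9, a regulatory subunit of such channels, at 423, 276 and 301 CPM and 33.1, 22.2 and 25.2 CPM. Gja1, connexin 43, was higher by 5.65 ± 0.13 (log2 ± SE). Of 18 tested cardiac transcription factors, 17 were higher in heart, with a median of 4.06. Ankrd1, a stretch-responsive transcriptional cofactor, had the largest difference of the 4 most abundant, 12.00 ± 0.41. Mef2a and Mef2d, regulators of muscle genes, differed by 3.04 ± 0.11 and 2.82 ± 0.10. Hand1 and Isl1, factors of the embryonic heart, did not pass the filter on low values.

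The 3 hearts were not alike in atrial genes, which were singled out after their values were seen. Nppa, the atrial natriuretic peptide, stood at 242, 2439 and 1698 CPM in hearts 1 to 3 and at 0 or 1 read in every liver. Myl7, the atrial regulatory light chain, stood at 0.860, 1059 and 772 CPM, Myl4, the atrial essential light chain, at 2.56, 1312 and 939.5 CPM and Sln, sarcolipin, an atrial inhibitor of the calcium pump, at 0.130, 259.7 and 220.1 CPM. Heart 1 was thus the lowest in all 4. Sln missed the threshold, with a difference of 5.37 and an adjusted p of 0.125 in limma, while Myl7 passed it at 0.0234. The part of atrial tissue in these values was not tested.

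Energy metabolism of the mitochondrion was the next group in favour of heart. All 36 complex I subunits were higher in heart, with a median of 1.83 (log2), above the 0.76 of all genes, and 34 of 36 under TMM. Ndufs1, a core subunit carrying iron-sulfur clusters, stood at 757, 741 and 772 CPM in hearts and 109, 128 and 101 CPM in livers. Ndufv1, the NADH-binding subunit, differed by 2.47 ± 0.10. Of 31 subunits of complexes II to IV with cytochrome c, 29 were higher in heart and 2 in liver, with a median of 1.92. The 2 exceptions were Cox6a1 (-1.58 ± 0.18) and Cox8a (-0.74 ± 0.12), which are the widely expressed forms of oxidase subunits that also have a muscle form. Of those muscle forms, Cox6a2 stood at 1870.0, 2009 and 1931 CPM in hearts and 7.70, 11.4 and 0.107 CPM in livers. All 17 genes of the ATP synthase were higher in heart, with a median of 1.92, and 16 of 17 under TMM. Atp5a1 and Atp5b, its α and β subunits, differed by 2.35 ± 0.14 and 2.34 ± 0.15.

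Of 33 genes of pyruvate dehydrogenase and the TCA cycle, 29 were higher in heart and 4 in liver, with a median of 2.36. Idh2, the mitochondrial NADP-linked isocitrate dehydrogenase, stood at 2741, 2282 and 2426 CPM in hearts and 123, 129 and 134 CPM in livers. Ogdh, of the 2-oxoglutarate dehydrogenase complex, differed by 3.83 ± 0.11. Of the 4 genes higher in liver, Idh1 (-2.90 ± 0.13) encodes the cytosolic NADP-linked isocitrate dehydrogenase and Aco1 (-2.02 ± 0.11) the cytosolic aconitase. The other two were Suclg2 (-0.41 ± 0.14), the GTP-forming succinyl-CoA ligase subunit, and Pdp2 (-0.42 ± 0.14), a pyruvate dehydrogenase phosphatase, and both calls were lost when heart 1 was left out. The cytosolic and mitochondrial NADP-linked isocitrate dehydrogenases were therefore called in opposite directions.

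Mitochondrial β-oxidation, which both organs carry out, favoured heart less strongly. Of 25 genes, 19 were higher in heart and 3 in liver, with a median of 0.91 against 0.76 for all genes, and under TMM 11 were higher in heart and 5 in liver. Hadhb and Hadha, the subunits of the trifunctional protein, differed by 3.22 ± 0.15 and 2.40 ± 0.13, and stood at 2160.2, 2049 and 2312 CPM and 2046, 2116 and 2322 CPM in the hearts. Acadl and Acadm, the long- and medium-chain acyl-CoA dehydrogenases, differed by 2.52 ± 0.13 and 2.04 ± 0.15. Cpt1a, the liver form of the entry step (-3.17 ± 0.22), Acad10 (-2.12 ± 0.18) and Acad11 (-0.69 ± 0.15) were higher in liver. Peroxisomal β-oxidation, which shortens very long chains, ran the other way, with 14 of 16 genes higher in liver, 1 in heart and a median of -2.56. Scp2, which encodes a peroxisomal thiolase and sterol carrier protein, differed by -3.43 ± 0.12 and Cat, catalase, by -2.49 ± 0.18.

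The mitochondrial ribosome, the machine in which the mutation of the series lies, showed a median close to that of all genes. Of 32 small-subunit proteins, 26 were higher in heart and 1 in liver (median 0.81), and of 49 large-subunit proteins, 40 were higher in heart and 1 in liver (median 0.79). Under TMM the counts were 11 and 9 for the small subunit and 17 and 12 for the large, so that on that scale the direction was mixed. Among small-subunit proteins, Mrps23 stood at 170.3, 148 and 134 CPM in hearts and 21.5, 25.1 and 21.9 CPM in livers. Mrps9 stood at 94.4, 87.2 and 84.3 CPM and 18.9, 21 and 16.7 CPM, while Mrps18b differed by -0.38 ± 0.11 in favour of liver, a call that was lost without heart 2 or heart 3. Mrps12 itself was within 0.1 of equality on the CPM scale and at -0.71 under TMM. The subunits of 1 particle thus spread over more than 3 log2 units of tissue difference. Of 37 translation factors, tRNA synthetases and maturation factors, 32 were higher in heart and none in liver (13 and 4 under TMM). Tufm, the mitochondrial elongation factor Tu, differed by 1.25 ± 0.09 and Lrpprc, which stabilises mitochondrial mRNA, by 1.34 ± 0.10. Of 18 mitochondrial chaperones and proteases, 14 were higher in heart and none in liver, with a median of 0.49, below that of all genes, and under TMM the direction flipped to 5 and 8. Phb, prohibitin, differed by 1.22 ± 0.10.

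**Figure D3:**
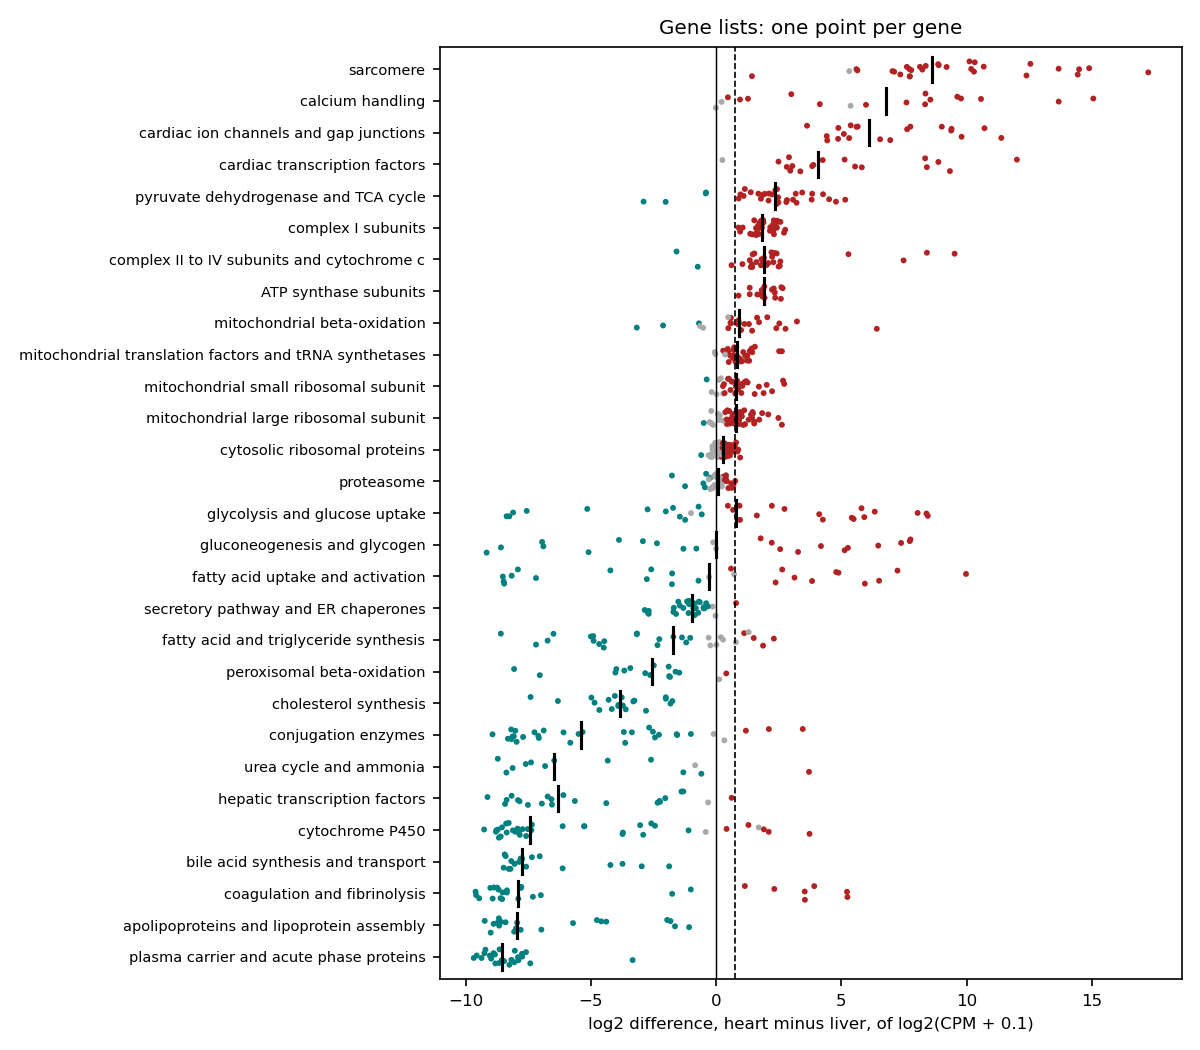
Log2 difference of heart minus liver (horizontal axis) for the tested members of 29 gene lists (rows), one point per gene, in red where called higher in heart, teal where called higher in liver and grey where not called, with a black bar at each list's median and a dashed line at the median of 0.76 over all tested genes. Contractile and electrical genes lie far to the heart side, complex I and the ATP synthase lie wholly to the right of 0, and the medians of plasma protein, lipoprotein, coagulation and bile acid genes lie near -8.

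Genes that buffer ATP and steer oxidative programmes split by role. Of 15 genes of creatine and adenylate metabolism, 8 were higher in heart and 5 in liver. Ckmt2, the mitochondrial creatine kinase of striated muscle, stood at 2444, 2065 and 2007 CPM in hearts and 12.1, 21.6 and 0.0149 CPM in livers, and Ckm, the cytosolic muscle form, at 2087, 1901 and 1746 CPM and 81.1, 97.7 and 0 CPM. The call of Ckm was lost when any 1 of the hearts was left out. Ckm is itself on the skeletal muscle marker list, and Ckmt2, which is not, was also lowest in liver 3. The genes that make creatine, Gamt (-5.27 ± 0.23) and Gatm (-1.19 ± 0.32), were higher in liver. Of 18 nuclear receptors and coactivators, 13 were higher in heart and 3 in liver, with a median of 1.75. Ppargc1a, a coactivator of mitochondrial biogenesis, stood at 176, 244 and 248 CPM in hearts and 23.1, 17.7 and 10.1 CPM in livers, and Perm1, a striated-muscle regulator of oxidative metabolism, at 610.5, 523 and 558 CPM and 3.63, 6.14 and 0.0299 CPM. Those higher in liver included Rxra, the partner of many receptors (-2.32 ± 0.11), and the cofactor Lpin1 (-1.20 ± 0.27).

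Isozyme pairs were compared as the ratio of 2 genes in the same column, which is free of the scaling. Of 28 pairs of a form named for muscle and a form named for liver or other tissues, 24 had reads of both forms in every column. The ratio of the muscle to the liver form was higher in all 3 hearts than in all 3 livers in 23 pairs and lower in 1. Each exact permutation test gave 0.1, the smallest p possible with 3 against 3, and the adjusted p over the pairs was 0.1 as well. The pairs were chosen by those names, so that a higher ratio in the hearts was likely in advance. Over all tested genes, the single levels of the tissues did not overlap for 80.6%. On the CPM scale, the 2 forms were called in opposite directions in 21 of the 28 pairs. In 22 pairs the form with the higher level per kilobase of exon was a different one in each organ. The skeletal muscle transcripts of livers 1 and 2 contain some of the same muscle forms, and their part in the liver values was not tested.

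In glycolysis, per kilobase of exon, Pkm made up 99.9% of pyruvate kinase in heart and 7.50% in liver, the rest being Pklr. The log2 ratio of the counts of Pkm to Pklr was 10.57 ± 0.98 in hearts and -3.12 ± 0.63 in livers (SD, n = 3). Ldhb, the lactate-oxidising subunit, made up 85.4% with Ldha in heart and 1.65% in liver. The change lay in Ldhb, which stood at 1692, 1511 and 1611 CPM in hearts and 8.51, 12.3 and 2.01 CPM in livers, while Ldha differed by -0.70 ± 0.20 (log2 ± SE), a call that was lost without heart 3. Pfkm was less one-sided, at 93.2% in heart and still 55.7% in liver against Pfkl, and both forms were higher in heart. Livers 1 to 3 stood at 53.7, 66.7 and 39.9%. In counts not divided by exon length, Pfkl was the higher form in liver, at a mean of 36.9 CPM against 23.2 CPM for Pfkm. Glycogen enzymes also had different major forms, with Pygm at 99.7% and 9.63% of phosphorylase and Gys1 at 98.3% and 1.92% of glycogen synthase.

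In lipid metabolism, Fabp3 stood at 6318, 5322 and 5175 CPM in hearts and 21.5, 31.4 and 0.153 CPM in livers, and Fabp1 at 43.1, 12.9 and 13.9 CPM and 5843, 8750.0 and 7555 CPM, so that the 2 organs transcribed different fatty acid-binding proteins. Cpt1b made up 97.3% of its pair with Cpt1a in heart and 4.39% in liver. The fatty acid transporter Slc27a1 made up 98.7% and 0.724% against Slc27a5, which also activates bile acids. Acacb, the acetyl-CoA carboxylase at the mitochondrial surface, was the major form per kilobase of exon in both organs, at 96.8% in heart and 70.5% in liver. In counts not divided by exon length, its log2 ratio to Acaca was only -0.15, 0.03 and 1.49 in livers 1 to 3. Plin5, the perilipin that ties droplets to mitochondria, made up 78.9% and 11.7% against Plin2. For the triglyceride-forming enzymes no difference was called on the CPM scale. Dgat1 made up 5.61% in heart and 4.80% in liver, with differences of 0.01 ± 0.18 for Dgat1 and -0.23 ± 0.16 for Dgat2 (log2 ± SE). The 95% intervals ran from -0.43 to 0.45 and from -0.61 to 0.14. Under TMM the differences were -0.71 and -0.96, both called.

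In the mitochondrion and amino acid metabolism, the heart adenine nucleotide translocase Slc25a4 made up 93.4% in heart and 4.81% in liver against Slc25a5. Cox6a2 made up 95.7% and 2.42%, and Cox7a1 75.5% and 3.51%. Mat2a, which makes the methyl donor S-adenosylmethionine outside liver, made up 97.7% and 2.38% against Mat1a. The pair in the opposite direction was alanine aminotransferase, in which Gpt2 made up 42.4% in heart and 57.8% in liver. Both Gpt2 (-3.59 ± 0.11) and Gpt (-2.67 ± 0.19) were higher in liver.

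**Figure D4:**
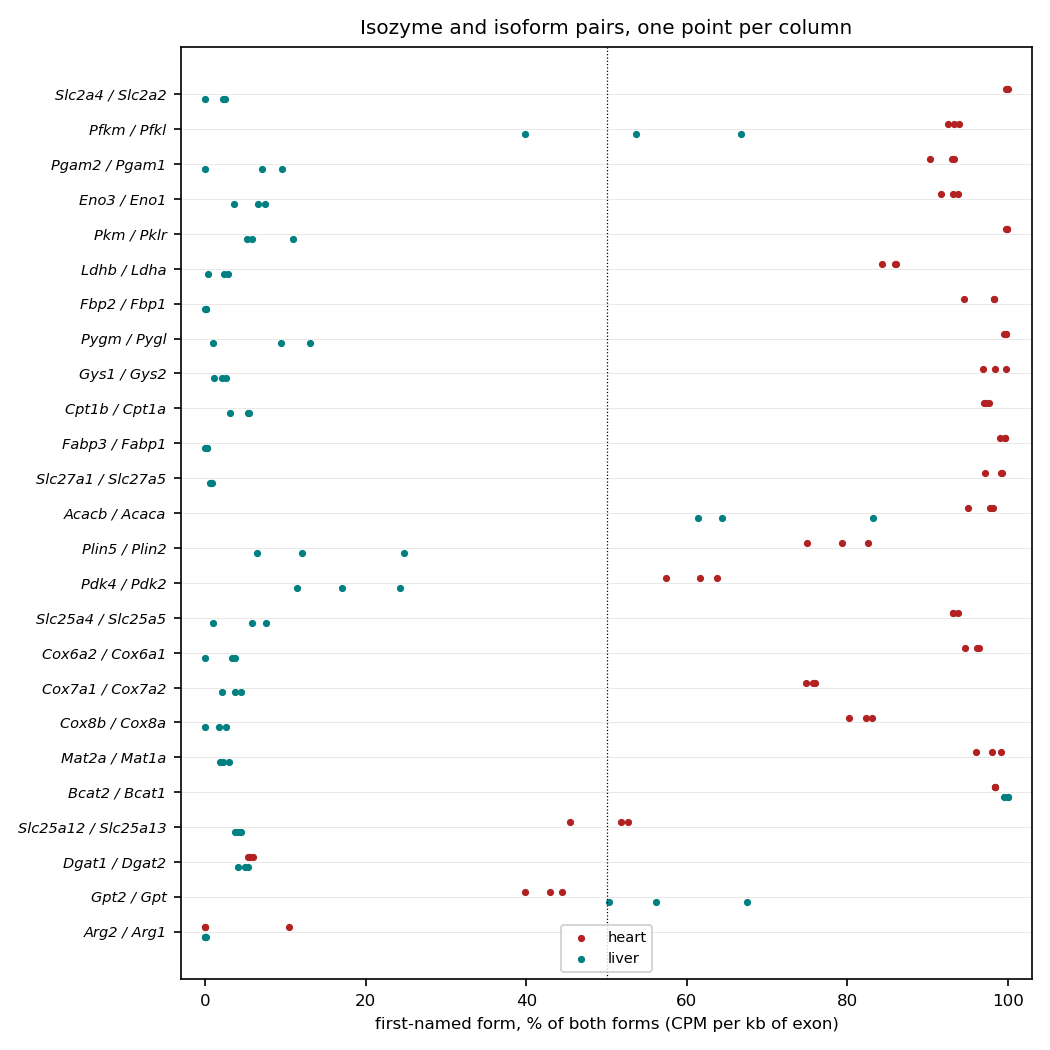
Share of the first-named (muscle) form in percent of its isozyme pair in 25 of the 28 pairs, from CPM per kilobase of exon (horizontal axis), one point per wild-type column, hearts in red and livers in teal. For pyruvate kinase the hearts average 99.9% and the livers 7.50%, whereas for diacylglycerol acyltransferase the averages are 5.61% and 4.80%.

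On the liver side, secreted proteins led. All 25 tested plasma carrier and acute phase proteins were higher in liver and none in heart, with a median of -8.56 (log2). Alb, serum albumin, stood at 82129, 67367 and 54009.6 CPM in livers and 299.7, 85.8 and 127 CPM in hearts. Mup22, a major urinary protein, stood at 10231, 16699 and 10834 CPM and 81.1, 22.2 and 24.6 CPM, and Serpina1c, an α1-antitrypsin, at 9344, 8914 and 4184 CPM and 41.3, 9.65 and 16.8 CPM. Both belong to families of near-identical genes among which Salmon may divide reads, so that their own levels are uncertain. Albumin, Mup22 and Serpina1c were each highest in heart 1 and lowest in heart 2. Of the 15 hepatocyte markers, which include albumin, 14 had that order, the exception being Ahsg, fetuin A, which was highest in heart 3. Saa1, an acute phase protein with the near-identical copy Saa2, stood at 256, 62.2 and 6184 CPM in the livers and 0.627, 0.324 and 1.01 CPM in hearts, with liver 3 far above the others, and its call was lost with limma-voom. Hpx, the haem carrier hemopexin, stood at 4728, 2753 and 11207 CPM and 11.4, 2.53 and 8.66 CPM. Serpina10, an inhibitor of clotting factor Xa, had the largest difference in favour of liver among genes of 100 CPM or more, -10.16 ± 0.65 (log2 ± SE, adjusted p = 1.62e-05 in limma), at 174, 154 and 730.0 CPM against 0.260, 0.0530 and 0.136 CPM.

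All 21 apolipoprotein and lipoprotein assembly genes were higher in liver, with a median of -7.95. Apoa1, the protein of high-density lipoprotein, stood at 9881, 11564 and 8643 CPM in livers and 45.5, 10.4 and 19.5 CPM in hearts. Apoe, which is also made by macrophages, stood at 19059, 24530.5 and 21654 CPM and 365, 446 and 429 CPM, with a difference of -5.71 ± 0.18 against -8.88 ± 0.50 for Apoa1. Of 27 coagulation and fibrinolysis genes, 20 were higher in liver and 7 in heart. Fibrinogen led the liver group, with Fga at 3449, 4093 and 13692 CPM in livers and 18.1, 3.50 and 6.41 CPM in hearts, again highest in liver 3. The 7 heart genes included products of the vessel wall, namely Vwf, von Willebrand factor (3.91 ± 0.40), Plat, tissue plasminogen activator (5.22 ± 0.34), and F3, tissue factor (3.54 ± 0.28), and also F13a1, the factor XIII A chain (5.24 ± 0.26). Of 26 complement genes, 22 were higher in liver and none in heart. C3, the central component, differed by -4.54 ± 0.37 and C4b by -5.15 ± 0.35.

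Hepatic metabolism of small molecules followed the same pattern. All 19 bile acid genes were higher in liver, with a median of -7.76. Slc10a1 and Slco1b2, the basolateral uptake transporters for bile acids and organic anions, stood at 483, 699 and 449 CPM and at 748, 976 and 926 CPM in livers, and at 4.07, 1.16 and 1.09 CPM and at 5.48, 1.59 and 2.66 CPM in hearts. Of 38 tested cytochrome P450 genes, 31 were higher in liver and 5 in heart. Cyp2e1, the ethanol-inducible form, stood at 4396, 8269 and 7156 CPM in livers and 43.6, 14.6 and 23.3 CPM in hearts. Among the 5 higher in heart was Cyp1b1, an extrahepatic form, at 14.8, 13.2 and 21 CPM in hearts and 1.95, 0.759 and 0.929 CPM in livers. Cyp4b1 was also higher there (1.90 ± 0.27). Of 32 conjugation enzymes, 27 were higher in liver and 3 in heart. Gsta3, a glutathione transferase, differed by -6.89 ± 0.28, and Mgst3, a microsomal one, by 3.45 ± 0.14 in favour of heart. P450 and UDP-glucuronosyltransferase genes include near-identical copies, whose single levels are uncertain.

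Nitrogen metabolism was likewise liver-biased. Of 13 urea cycle and ammonia genes, 11 were higher in liver. Cps1, the first enzyme of the cycle, stood at 3015, 1722 and 709 CPM in livers 1 to 3 and 9.13, 2.10 and 4.86 CPM in hearts, and Arg1, the last, at 1617, 1002 and 920.2 CPM and 6.23, 1.19 and 2.35 CPM. Of 35 amino acid catabolism genes, 28 were higher in liver and 6 in heart. Tat, which opens tyrosine breakdown, differed by -8.92 ± 0.63, and Hpd, in the same pathway, by -8.78 ± 0.52. The 6 heart genes included 3 of branched-chain amino acid breakdown, namely Bcat1 (4.66 ± 0.45), Bcat2 (2.76 ± 0.23) and Ivd (1.78 ± 0.20). Branched-chain transamination is known to take place mostly outside the liver.

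Of 22 hepatic transcription factors, 20 were higher in liver and 1 in heart, with a median of -6.33. Hnf4a, the central hepatocyte regulator, stood at 663, 631 and 724 CPM in livers and 2.84, 0.377 and 1.13 CPM in hearts. Nr1i3, the xenobiotic receptor CAR, and Creb3l3, a regulator of fasting lipid genes, differed by -8.17 ± 0.47 and -8.43 ± 0.52. Mlxipl, the carbohydrate response factor ChREBP, differed less, by -2.26 ± 0.17. Of 31 genes of the secretory pathway through which the plasma proteins leave the cell, 28 were higher in liver and 1 in heart, with a median of -0.98. P4hb, protein disulfide isomerase, differed by -2.70 ± 0.15 and Hspa5, the reticulum chaperone BiP, by -0.81 ± 0.20.

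Both lists of lipid synthesis favoured liver, while fatty acid uptake and activation had genes on both sides. All 20 cholesterol synthesis genes were higher in liver, with a median of -3.84. Sc5d, a late sterol desaturase, differed by -4.17 ± 0.11, and Fdps, which makes farnesyl diphosphate, stood at 293, 345 and 636 CPM in livers and 13.9, 12.9 and 11.1 CPM in hearts. Of 29 genes of fatty acid and triglyceride synthesis, 18 were higher in liver and 4 in heart. Scd1, stearoyl-CoA desaturase, was among the 8 most abundant liver genes at 15736, 13769.5 and 10746 CPM, against 90.4, 50.9 and 689.5 CPM in hearts, where heart 3 stood above the others. The related Scd2 was higher in heart by 1.87 ± 0.36. Fads2 (-6.73 ± 0.10) and Fads1 (-4.91 ± 0.10), the desaturases of polyunsaturated fatty acids, were higher in liver. Of 25 genes of fatty acid uptake and activation, 11 were higher in heart and 12 in liver, with a median of -0.29. Lpl, lipoprotein lipase, which frees fatty acids from circulating triglyceride, stood at 6514, 5269.9 and 6324 CPM in hearts and 56.7, 57.9 and 19.1 CPM in livers, and Cd36, a fatty acid translocase, at 2320.4, 2111 and 2312 CPM and 107, 157 and 236 CPM. Vldlr, the receptor for very-low-density lipoprotein, and Acsl6, an acyl-CoA synthetase, differed by 5.93 ± 0.19 and 6.50 ± 0.41.

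Of ketone body genes, Oxct1, which is needed to use them, stood at 1369.5, 1239 and 1178 CPM in hearts and 10.9, 10.6 and 2.22 CPM in livers. Slc16a1, a ketone and lactate transporter, was higher in heart by 2.68 ± 0.14. Of 10 tested genes of the pathway, 3 were higher in heart and 6 in liver. Of 19 tested lipid droplet and lipolysis genes, 9 were higher in heart and 6 in liver (4 and 7 under TMM). Their median was 0.78, against 0.76 for all genes. Pnpla2, adipose triglyceride lipase, differed by 2.16 ± 0.23, and Plin2, the perilipin of stored fat, stood at 447, 1034 and 1467 CPM in livers and 89.0, 57.9 and 73.6 CPM in hearts. Hsd17b13, a droplet protein of hepatocytes, differed by -9.04 ± 0.53.

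Glucose metabolism had genes on both sides. Of 30 glycolysis and glucose uptake genes, 17 were higher in heart and 12 in liver, and under TMM 13 and 14. Their median was 0.80, against 0.76 for all genes. Of 23 genes of gluconeogenesis and glycogen, 11 were higher in heart and 10 in liver (10 and 12 under TMM), with a median near 0. Pck1, which commits oxaloacetate to glucose, stood at 4341, 3523 and 2869 CPM in livers and 18, 7.82 and 162 CPM in hearts, and G6pc, which releases free glucose, at 561, 345 and 105 CPM and 1.38, 0.162 and 0.815 CPM. Pck1 was highest in heart 3, the heart with the most adipocyte transcripts. Fbp1 differed by -9.16 ± 0.41. Pygb, the brain form of glycogen phosphorylase, joined Pygm on the heart side at 7.75 ± 0.21. Of 24 genes of the insulin and growth hormone axis, 14 were higher in heart and 8 in liver (8 and 9 under TMM). Over all tested genes 57.1% were higher in heart and 19.6% in liver. The median of the axis was 1.02, against 0.76 for all genes. Igf1, the growth factor that liver releases into blood, and its binding proteins Igfbp1, Igfbp2 and Igfbp4 differed by -4.71 ± 0.13, -9.00 ± 0.77, -6.27 ± 0.56 and -3.41 ± 0.26. On the heart side, chosen here after their values were seen, Igf1r, the receptor of that growth factor, and Grb10, an adaptor that binds insulin receptors, differed by 3.87 ± 0.30 and 4.66 ± 0.20. Gcgr, the glucagon receptor, differed by -7.59 ± 0.22 and Ghr, the growth hormone receptor, by -1.27 ± 0.13.

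Antioxidant, iron and stress genes were mixed, with medians of 0.33, -0.13 and 0.18, all below the 0.76 of all genes. Of 26 antioxidant genes, 12 were higher in heart and 12 in liver (6 and 14 under TMM). Over all tested genes the shares were 57.1% and 19.6%. Gpx1, cytosolic glutathione peroxidase, stood at 1172, 1745 and 1616 CPM in livers and 64.5, 61.1 and 81.9 CPM in hearts, and Gclc, which limits glutathione synthesis, differed by -3.50 ± 0.16. On the heart side, chosen here after their values were seen, Gpx3, the plasma glutathione peroxidase, and Sod2, mitochondrial superoxide dismutase, differed by 5.76 ± 0.45 and 2.08 ± 0.09. Of 21 iron genes, 6 were higher in heart and 10 in liver. Mb, myoglobin, stood at 15449.7, 13340.1 and 13359.7 CPM in hearts and 45.0, 74.3 and 0.0617 CPM in livers, while Trf, transferrin, stood at 11744, 10425 and 12029 CPM in livers and 67.1, 56.1 and 54.4 CPM in hearts. Bmp6, which induces hepcidin, was higher in heart by 3.76 ± 0.40. Of 18 genes of mitochondrial stress and mitokines, 6 were higher in each organ (5 in heart and 9 in liver under TMM). The secreted factors Fgf21 and Gdf15 were higher in liver, at 7.93, 15.5 and 16.5 CPM and 16.1, 20.7 and 36.9 CPM against 0.236, 0 and 0.0772 CPM and 5.01, 0.835 and 0.778 CPM in hearts. Ddit4, an inhibitor of mTORC1, was higher in heart by 1.76 ± 0.37. Of 19 circadian clock genes, 9 were higher in heart and 4 in liver, with a median of 0.52, below that of all genes. Under TMM the counts turned to 3 and 7. The hour of collection is not given in the sources used here. Ciart, a repressor of the clock, differed by -1.52 ± 0.12.

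Housekeeping groups lay between the median of all genes and equality. Of 75 cytosolic ribosomal proteins, 42 were higher in heart and 1 in liver, with a median of 0.26, and under TMM the direction flipped, with 1 higher in heart and 57 in liver. The exception on the CPM scale was Rpl10 (-0.60 ± 0.08). Of 34 proteasome subunits, 11 were higher in heart and 6 in liver, with a median of 0.05, and under TMM none and 29. Psmb9, a subunit of the immunoproteasome, differed by -1.77 ± 0.34. The abundant genes nearest to equality included Ctsb, cathepsin B, Fth1, ferritin heavy chain, and Ubb, ubiquitin. Ctsb stood at 637, 663 and 641 CPM in hearts and 788, 573 and 658 CPM in livers, and Fth1 at 1521, 1639 and 1647 CPM and 1567, 1853 and 1862 CPM. Ubb stood at 632, 607 and 687 CPM and 612, 559 and 791 CPM. Their differences were -0.05, -0.13 and -0.01 by CPM, and -0.77, -0.86 and -0.74 under TMM, where all 3 were called.

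Markers of the other cells of the organs also differed. All 12 endothelial markers and all 10 fibroblast markers were higher in heart. Pecam1, an endothelial adhesion molecule, differed by 3.83 ± 0.32 and Col3a1, type III collagen, by 2.28 ± 0.27. Of the endothelial markers of the liver sinusoid, Stab2 stood at 41.7, 40.3 and 32.9 CPM in livers and 1.36, 0.377 and 0.815 CPM in hearts, and Clec4g differed by -5.66 ± 0.39, whereas Lyve1 and Stab1 were higher in heart by 0.82 ± 0.28 and 0.94 ± 0.14, calls that were lost under TMM. All 5 Kupffer cell markers were higher in liver, led by Cd5l (-7.60 ± 0.62) and Clec4f (-5.99 ± 0.36), while of 10 general macrophage markers 1 was higher in heart and 1 in liver (none and 7 under TMM). Among stellate cell markers, Reln differed by -3.17 ± 0.32, and Des and Dcn, which heart muscle and fibroblasts also make, favoured heart by 7.04 ± 0.71 and 2.09 ± 0.14.

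Several marker sums differed between mice of 1 organ. Erythroid markers summed to 3535, 2863 and 7282 CPM in hearts 1 to 3 and 1486, 1087 and 837 CPM in livers, with the haemoglobin genes being near-identical copies. Heart 1 had 387 CPM of smooth muscle markers, against 1050.5 CPM and 1040.4 CPM in hearts 2 and 3, besides its low atrial genes. Adipocyte markers summed to 111, 130.5 and 676 CPM in hearts 1 to 3. The excess of heart 3 included Ucp1, the brown-fat uncoupling protein chosen here after its values were seen, at 0, 0.782 and 264 CPM, and the same heart was highest for Scd1. Only 2 of 8 pancreas markers passed the filter, of which Cela1 differed by -4.73 ± 0.50 in favour of liver. In the livers, the Kupffer cell markers summed to 448, 153 and 174 CPM in livers 1 to 3 and the cholangiocyte markers to 37.3, 53.0 and 225 CPM, besides the muscle transcripts of livers 1 and 2 and the high Saa1 and Fga of liver 3.

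**Figure D5:**
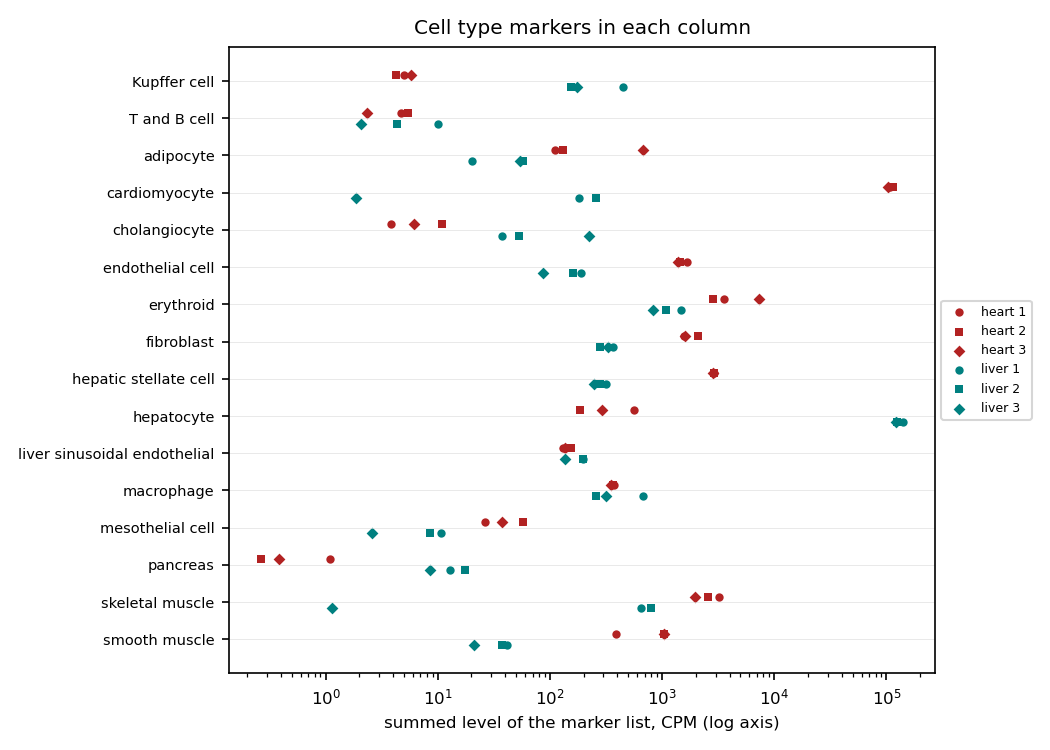
Summed level in CPM (horizontal axis, log scale) of 16 cell type marker lists (rows) in the 6 wild-type columns, hearts in red and livers in teal, with circle, square and diamond for replicates 1, 2 and 3. The skeletal muscle markers split livers 1 and 2 (653 and 799 CPM) from liver 3 (1.14 CPM), and the adipocyte markers set heart 3 (676 CPM) apart from hearts 1 and 2.

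The same tissue difference was measured in the 6 hearts and 6 livers of the mutant lines, which share no mouse with the wild types. Of 8328 genes called at least 2-fold different in wild types, 8313 (99.8%) had the same direction in Mrps12ep/ep mice and 8284 (99.5%) in Mrps12ha/ha mice. Whether the size of the difference depended on genotype was tested as an interaction in limma, and the 2 tests share the wild-type columns. For Mrps12ep/ep, 9 genes passed an adjusted p under 0.05, which is 0.0605% of those tested, with 942 at an unadjusted p under 0.05. For Mrps12ha/ha, 7 genes passed (0.0471%), with 1902 at an unadjusted p under 0.05.

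Of the 9 genes for Mrps12ep/ep, 4 were genes of cholesterol synthesis, a list in which all 20 members were higher in wild-type liver. Cyp51, lanosterol demethylase, had a heart-minus-liver difference of -3.72 in wild types and -1.46 in Mrps12ep/ep mice. Its livers stood at 145, 185 and 277 CPM in wild types and 35.4, 40.3 and 41.3 CPM in the mutants, and its hearts at 16.2, 12.9 and 15.2 CPM and 14.6, 14.3 and 13.2 CPM. The liver values did not overlap. Idi1, which isomerises isopentenyl diphosphate, went from -4.86 to -2.19, Msmo1, a sterol oxidase, from -4.66 to -2.55, and Nsdhl, a sterol dehydrogenase, from -3.77 to -1.73. Stard4, a cholesterol carrier outside the list, went from -3.51 to -2.47. For Mrps12ha/ha no gene of that list passed, and the difference between the mutants was not tested.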

How the data were processed

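Total RNA, described by the study as isolated from total hearts or livers, was sequenced on Illumina HiSeq. Per the labels and the study's methods, the authors trimmed reads with Trim Galore 0.4.1 (cutadapt 1.18, FastQC 0.11.8) and quantified GENCODE mouse transcripts on GRCm38.p6 with Salmon 1.1.0. They deposited normalized counts per gene, each column divided by a DESeq2 size factor, for hearts and livers separately, with 3 technical libraries pooled into a column per mouse. The study's methods speak of pooled biological replicates, but each column carries the number of 3 libraries labelled as technical replicates, so a column was taken as 1 mouse. Reads from near-identical genes may be divided among them by Salmon. The authors' tables of fold changes and p-values were not used.

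The deposited values of a column were whole multiples of 1 step (100% of values up to 1000, within 0.05), which gave the reads behind them (37101153 to 67825945 per wild-type column). Each column was scaled to a sum of 1000000. Protein-coding genes with a mean deposited value of 10 or more in either tissue were tested with limma 3.58.1 (R 4.3.3) on log2(CPM + 0.1), with Benjamini-Hochberg adjustment over all 14872 genes and a threshold of 0.05. A fold change on this scale understates the change of low genes. The planned edgeR test was not run, and limma-voom on the recovered reads was run in its place. Ratios of isozyme pairs and library shares used exact two-sided permutation tests (Python 3.11.15, pandas 2.3.3, numpy 2.4.6, scipy 1.17.1). Levels were divided by exon length only where 2 genes were compared. That length joins all annotated exons of a gene and can exceed that of any 1 transcript. The limma script was tested on simulated data. Alternatives covered pseudocount, filters, scaling, moderation, the replicate number as a block and each column left out.

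Members and gene lists were chosen with earlier results of these data known. Named were Mrps12, the 8 most abundant genes of each tissue, the 8 largest called differences each way, both members of each pair, up to 4 abundant and 4 minority-direction called members per list, and genes nearest to equality. A few others are marked as chosen after their values were seen. Of 1217 list entries, 1216 matched a gene, 2 of them under an older symbol. Some items are not reported here.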

Additional observations from a re-analysis of the deposited data

Results flagged for a closer look

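The heart-minus-liver difference depended on genotype for the following genes by an interaction test in limma (adjusted p under 0.05 over 14872 genes, 3 mice per tissue and genotype). Values are the tissue difference of the mutant minus that of the wild type on the log2 scale, and both mutants were compared with the same wild-type columns. In Mrps12ep/ep mice, 4 genes of cholesterol synthesis changed by 2.67 (Idi1), 2.26 (Cyp51), 2.11 (Msmo1) and 2.04 (Nsdhl), and the cholesterol carrier Stard4 by 1.04. Alpk3, a kinase of striated muscle, changed by 3.80, with livers at 1.71, 2.83 and 0.837 CPM in wild types and 0.0612, 0 and 0 CPM in mutants, and Fam126a changed by 1.65. AL731706.2 changed by -3.28, standing at 0.781, 0.997 and 0.856 CPM in wild-type hearts and at 0 in all mutant columns of that genotype.

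Cyp2a22, a cytochrome P450 with near-identical family members, changed by 6.51 in Mrps12ep/ep and 6.86 in Mrps12ha/ha mice. It stood at 6.00, 10.3 and 22.1 CPM in wild-type livers, at 0.0474, 0 and 0 CPM in Mrps12ep/ep livers and at 0, 0.0126 and 0.0190 CPM in Mrps12ha/ha livers. In Mrps12ha/ha mice, Ahr, the aryl hydrocarbon receptor, changed by 2.70, with livers at 51.2, 43.8 and 94.5 CPM in wild types and 25.3, 18.2 and 21 CPM in mutants, and hearts at 4.90, 5.90 and 5.24 CPM and 17.1, 10.0 and 11.5 CPM. Mthfd1l, a mitochondrial folate enzyme, changed by 3.35, from -2.33 to 1.02. Efr3b changed by 1.95, Alg12 by 1.04, Fchsd2 by -1.37 and Il17re by -2.78. The number of such genes was 5 and 8 under TMM, and 8 and 10 with a mean of 50 or more, for Mrps12ep/ep and Mrps12ha/ha. Cyp2a22, Alpk3 and Fchsd2 lie on chromosome 7, as does Mrps12, and the other genes listed here lie on other chromosomes. Cyp51 and Fam126a share chromosome 5, and Ahr and Efr3b share chromosome 12. The share of all tested genes on chromosome 7 was not counted, and a shared chromosome is not a measure of distance. No explanation of the interactions listed here was tested, and neither was any part of nearness to the edited locus.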

How the results depend on the processing

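The number of called genes stayed within 1.5 times of 11419, and that at 2-fold or more within 1.5 times of 8328, under all alternatives run. Leaving out 1 column gave 10490 to 11433 and 8011 to 8439, and limma-voom, chosen after seeing the data, 11274 and 8283. The planned edgeR test was not run. With a replicate block the counts were 11090 and 8289, and 967 against 978 called genes of the lists. The numbers are not stated to pair hearts with livers, the correlations of same-numbered deviations were 0.01, -0.01 and 0.03, and not every sample correlated best with its own number. The split by direction followed the scaling, with 5442 heart and 5051 liver calls under TMM, 5400 and 5074 under median of ratios, and 5709 and 4847 under quantile normalization. The difference in the share of the 10 most abundant genes went from -2.87 to -5.65 percentage points among protein-coding genes. For Mrps12 the sign turned under TMM (-0.71), median of ratios (-0.71), quantile normalization (-0.53) and without the 10 most abundant genes of each tissue (-0.024), and Dgat1 turned to -0.71, -0.72, -0.62 and -0.031 under the same scalings. Leaving out 1 column turned the sign for Mrps12 (range -0.022 to 0.048, below 0 without heart 1 or liver 1), Dgat1 (-0.14 to 0.14, below 0 without heart 3, liver 1 or liver 3), Ctsb (-0.16 to 0.075, above 0 without liver 1) and Ubb (-0.12 to 0.13, above 0 without heart 2 or liver 3). Fth1 turned to 0.37 under quantile normalization. Relative to all genes, list medians turned without liver 1 for lipid droplets (range -0.24 to 0.26, also without heart 2), β-oxidation (-0.080 to 0.31) and the mitochondrial large (-0.036 to 0.13) and small (-0.0082 to 0.087) subunits, without liver 3 for glycolysis (-0.016 to 0.091), and under quantile normalization for mitochondrial chaperones (0.15). The cause of these changes was not tested. With 3 mice per tissue, heart levels of liver genes near 1 read rest on few counts.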
